A study of Mus musculus with 3 samples.

Results

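The genes described here build the protein-synthesis and energy machinery of mitochondria: the mitochondrial ribosomal proteins (Mrpl and Mrps genes), the subunits and some assembly factors of respiratory chain complexes I to IV (Nduf, Sdh, Uqcr and Cox genes) and the ATP synthase, complex V (Atp5 genes). Members were protein-coding mouse genes with symbols beginning Mrpl or Mrps and a number, Nduf, Uqcr, Cox4 to Cox8 or Atp5, plus Sdha to Sdhd. This rule gave 172 gene records, or 171 symbols, among 21851 protein-coding genes. Atp5o has 2 records. A listed peak was assigned to a member when its summit, the point of highest signal, lay between 2 kb upstream and 1 kb downstream of a transcription start site (TSS) of the gene. Of 17149 listed peaks, 8111 were promoter peaks of protein-coding genes by this rule, and 103 of these were at members. The list runs to a false discovery rate (FDR) of 1 and holds 7282 peaks with an FDR under 0.05, so peaks above that threshold are weaker evidence of binding, and both counts are given.

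Chromatin was precipitated through the FLAG tag that the endogenous Gli3 allele of these mice carries, and the recovered DNA was sequenced (ChIP-seq) to locate GLI3. The material was forelimb buds of E10.5 embryos with 32 to 35 somites, on a mixed strain background. There were 2 ChIP libraries and 1 input library of chromatin that was not precipitated, each from the limb buds of 2 litters. The genotype label of every library reads wild type, and no embryo without the tag was measured here. The values used here come from 1 processed file, a peak list attached to the record of ChIP replicate 1. It was taken as a joint call from both ChIP libraries because the study's methods name both replicates for peak calling, but the list does not state this. It holds no value for either library, so replicate error is unknown for every value below. Percentages carry 95% Wilson intervals, which cover counting error over genes or peaks only. The study's methods state a minimum sequencing depth without read totals for single libraries. The list holds no expression values by which the tissue could be checked against its markers. In whole limb buds weak binding in all cells and strong binding in a few cannot be told apart.

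Mitochondria keep their own small genome, which encodes a few respiratory chain subunits and the ribosomal RNAs. All mitochondrial ribosomal proteins and most respiratory subunits are encoded in the nucleus, made in the cytosol and imported. Complexes I, III and IV pump protons as electrons pass to oxygen, complex II feeds electrons from succinate into the chain, and complex V uses the proton gradient to make ATP. Most of these nuclear genes are expressed in nearly all cells from promoters rich in CpG dinucleotides, and NRF1, the ETS-family factor GABP and YY1 are known regulators of many of them. GLI3, a zinc-finger protein that binds DNA at the end of the Hedgehog (HH) pathway, acts in the limb bud largely as a repressor.

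To ask how often these promoters held a GLI3 peak, member genes with a promoter peak were counted. A listed promoter peak was present at 93 of 172 members (54.1%, 95% interval 46.6 to 61.3), against a background of 30.7% of all protein-coding genes. At an FDR under 0.05, 51 members had a promoter peak (29.7%, interval 23.3 to 36.9), against a background of 17.0%. Both intervals lay above the background. The remaining 79 members had no listed promoter peak.

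A comparison with all genes mixes unlike promoters, so members were next compared within promoter classes. A CpG island, here a 500 bp stretch near a TSS that is at least 55% G and C and has an observed-to-expected CpG ratio above 0.65, was present at 159 of 172 members (92.4%) and at 57.3% of other genes. Among the 159 island members, 93 had a listed promoter peak (58.5%, interval 50.7 to 65.9), and the background for island genes was 50.3%. At an FDR under 0.05 the count was 51 of 159 (32.1%, interval 25.3 to 39.7), against 28.3% of island genes. Most of the excess over all genes was thus also present at other island promoters. The interval for listed peaks lay just above the background of island genes, and that for peaks under the FDR threshold contained it. None of the 13 members without an island had a listed promoter peak, and 4.2% of other genes without an island had one.

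Many members also share a short stretch of DNA with a gene transcribed the other way. A divergent partner, an oppositely directed TSS of another protein-coding gene within 1 kb, was present for 63 members (36.6%) and for 10.3% of other genes. With an island and a divergent partner, 58.7% of members and 61.0% of other genes had a listed promoter peak. With an island and no divergent partner the values were 58.3% (interval 48.3 to 67.7) and 48.1% (interval 47.1 to 49.0). Weighting other genes to the members' mix of these classes gave 49.5% with a listed peak and 28.5% with a peak under the FDR threshold. Both values lay inside the members' intervals, so members (54.1% and 29.7%) and weighted other genes differed by less than the counting error. GC content of the 300 bp around the gene's start gave a different picture, since weighting other genes to the members' GC content left 32.5% with a listed peak.

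**Figure D1:**
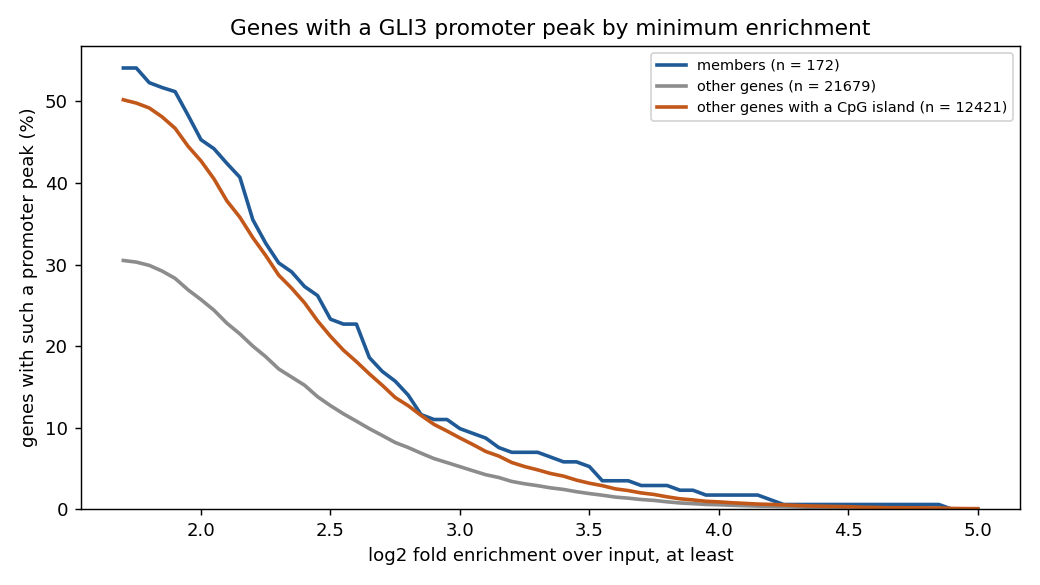
Share of genes (%) with a promoter peak of at least the log2 fold enrichment over input on the horizontal axis, for members, other protein-coding genes and other genes with a CpG island. At an enrichment of 3 or more the shares were 9.88%, 5.22% and 8.74%, and the members' curve ran close to that of island genes at these values.

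The same order was seen at higher enrichment, which the list gives as the largest log2 ratio of ChIP to input within a peak. A promoter peak with a log2 fold enrichment of at least 2.5 was present at 40 members (23.3%, interval 17.6 to 30.1), 12.7% of other genes and 21.2% of other island genes. At a log2 of 3.5 or more, 9 members (5.23%, interval 2.78 to 9.64), 1.92% of other genes and 3.19% of other island genes had one. Both of the members' intervals contained the share of other island genes, so these differences were within the counting error. The genes at the higher cutoff are also among those at the lower. In the curves of share by enrichment the order held at these values but not at the top of the range, where no member exceeded the 4.85 of Mrpl14 and some other genes did.

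The peaks themselves resembled those at other promoters in strength. The 103 member peaks had a median log2 fold enrichment of 2.28 (interquartile range 2.06 to 2.74), and the 8008 other promoter peaks had a median of 2.27 (2.03 to 2.65). Median length was 250 bp in both. Among the 1000 highest-ranked peaks of the whole list were 11 member peaks (10.7%, interval 6.07 to 18.1) and 6.16% of other promoter peaks, a difference within the counting error.

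The highest enrichment at a member was at Mrpl14, which encodes a protein of the large mitochondrial ribosomal subunit. Its peak, ranked 36 in the list, lay at chr17:45685900-45686999 (mm10, as are all coordinates) with a log2 fold enrichment of 4.85 and its summit in the 5′ UTR, 15 bp downstream of the TSS. The window of Tmem63b, a gene with a more distant TSS, also held this summit. Among 49 large-subunit genes, 28 had a listed promoter peak (57.1%, interval 43.3 to 70.0). Under the FDR threshold 15 had one (30.6%, interval 19.5 to 44.5). These intervals contained the shares of island genes, 50.3% and 28.3%, and lay above those of all genes, 30.7% and 17.0%. Mrpl23 (3.55), Mrpl10 (3.47), Mrpl49 (3.35) and Mrpl22 (2.99) followed in log2 fold enrichment. The summit listed for Mrpl49 was 62 bp upstream of its TSS but 3 bp from that of Fau, which encodes a ubiquitin-like protein fused to a cytosolic ribosomal protein, so the peak cannot be given to either gene alone.

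Among the 29 genes of the small ribosomal subunit, 16 had a listed promoter peak (55.2%, interval 37.5 to 71.6). Under the FDR threshold 6 had one (20.7%, interval 9.85 to 38.4), near the 17.0% of all genes. The shares of island genes, 50.3% and 28.3%, lay inside these intervals. Mrps26 was the highest, with a log2 fold enrichment of 3.14 and a summit 30 bp upstream of the TSS. A pair of ribosomal genes, Mrps11 and Mrpl46, is transcribed divergently from a common promoter, and 1 peak (chr7:78782850-78783449, log2 2.83) lay in both windows. A similar peak (chr3:32736750-32737449, log2 2.66) lay in the windows of Mrpl47 and the complex I gene Ndufb5. The large and small subunits together had a listed peak at 44 of 78 genes (56.4%, interval 45.4 to 66.9), against 49 of 94 genes (52.1%, interval 42.1 to 61.9) of complexes I to V with their assembly factors. Both intervals contained the 50.3% of island genes.

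Complex I takes electrons from NADH. Of the 7 nuclear-encoded core subunits, which carry its flavin and iron-sulfur clusters or line the path to ubiquinone, 6 had a listed promoter peak and 5 had one under the FDR threshold. The interval of the listed share was wide for 7 genes (48.7 to 97.4%). It lay above the 30.7% of all genes and contained the 50.3% of island genes. Under the FDR threshold the share was 71.4% (interval 35.9 to 91.8), and its interval lay above the 17.0% of all genes and 28.3% of island genes. Ndufs8, an iron-sulfur subunit, had a log2 fold enrichment of 4.20, rank 151 and a peak at chr19:3912250-3913199 with its summit in an annotated 5′ UTR. Ndufs7, also an iron-sulfur subunit, had a log2 fold enrichment of 2.35. Ndufs1, which carries several iron-sulfur clusters, had a weak peak (log2 1.75, rank 16949) above the FDR threshold, and Ndufv2, another iron-sulfur subunit, had no listed promoter peak.

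Accessory subunits surround this core. Of 31 accessory genes, 17 had a listed promoter peak (54.8%, interval 37.8 to 70.8), 10 of them under the FDR threshold (32.3%, interval 18.6 to 49.9). The shares of island genes, 50.3% and 28.3%, lay inside these intervals. Ndufa4, named as a complex I gene although its product is now placed in complex IV, had a log2 fold enrichment of 4.19 (chr6:11907350-11907949, rank 156). Its summit was 105 bp upstream of the TSS, outside annotated transcripts, and no other gene's window held it. Ndufa5 followed with 3.91, then Ndufa13 with 3.83, Ndufs5 with 3.15 and Ndufb7 with 2.90. The stronger Ndufa13 peak lay 744 bp upstream of its TSS and nearer, at 590 bp, to that of Yjefn3, and a second peak at the Ndufa13 TSS itself had 2.27. Of 8 genes for complex I assembly factors, 4 had a listed promoter peak, and Ndufaf1 was highest at 2.61.

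Complex II has 4 genes. Sdhc, which encodes a membrane anchor, had a log2 fold enrichment of 3.5 (chr1:171150100-171150599, rank 746), with the summit in an intron, 79 bp downstream of the TSS. Sdha, the flavoprotein that oxidises succinate, had 2.17 and did not reach the FDR threshold. Sdhb, the iron-sulfur subunit, and the other anchor gene Sdhd had no listed promoter peak. For complex III, 4 of 8 Uqcr genes were listed, and Uqcrc1, a core protein of the complex, was the single one under the FDR threshold (2.46). The interval for the listed share, 21.5 to 78.5%, contained both the 30.7% of all genes and the 50.3% of island genes.

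Complex IV, cytochrome c oxidase, had the lowest share of the larger groups, with 5 of 18 genes listed (27.8%, interval 12.5 to 50.9), a share near the 30.7% of all protein-coding genes. Cox5a had a log2 fold enrichment of 3.54 with a summit 127 bp upstream of the TSS, and Cox6c had 3.07. Isoforms used in particular tissues were among the genes without a peak. None of the 8 tissue-restricted isoforms had a listed promoter peak (upper limit of the interval 32.4%), namely Cox6a2, Cox7a1 and Cox8b of muscle, the lung isoform Cox4i2, Cox6b2, Cox7b2 and Cox8c of testis, and the hypoxia-induced Ndufa4l2. All 8 also lacked a CpG island. The 5 members without an island that are not in this list, Ndufa3, Cox7b, Mrpl24, Mrpl35 and the second Atp5o record, had no listed promoter peak either. Without the tissue-restricted isoforms 5 of 11 complex IV genes were listed (45.5%), near the 50.3% of island genes. The nearest summit to a tissue-restricted TSS was that of Ndufa4l2, 3755 bp upstream, with a log2 fold enrichment of 2.82.

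Of 18 records of complex V genes, 11 had a listed promoter peak (61.1%, interval 38.6 to 79.7). Under the FDR threshold 7 had one (38.9%, interval 20.3 to 61.4). The shares of island genes, 50.3% and 28.3%, lay inside these intervals. Atp5l, a subunit of the membrane part, had a log2 fold enrichment of 3.66 (rank 543). Atp5h of the peripheral stalk had 3.40, the membrane-part gene Atp5j2 3.16, Atp5g2, a gene of the proton-carrying ring, 3.03, and Atp5d of the rotor 2.99. The catalytic-head genes Atp5a1 and Atp5b and the rotor genes Atp5c1 and Atp5e had no listed promoter peak. The Atp5h summit lay in a coding exon of Kctd2, 97 bp from the Kctd2 TSS and 285 bp upstream of that of Atp5h. Atp5j shares its promoter with Gabpa, which encodes the DNA-binding subunit of GABP, and 3 listed peaks lay in its window, with log2 fold enrichments of 2.61, 1.85 and 1.82.

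**Figure D2:**
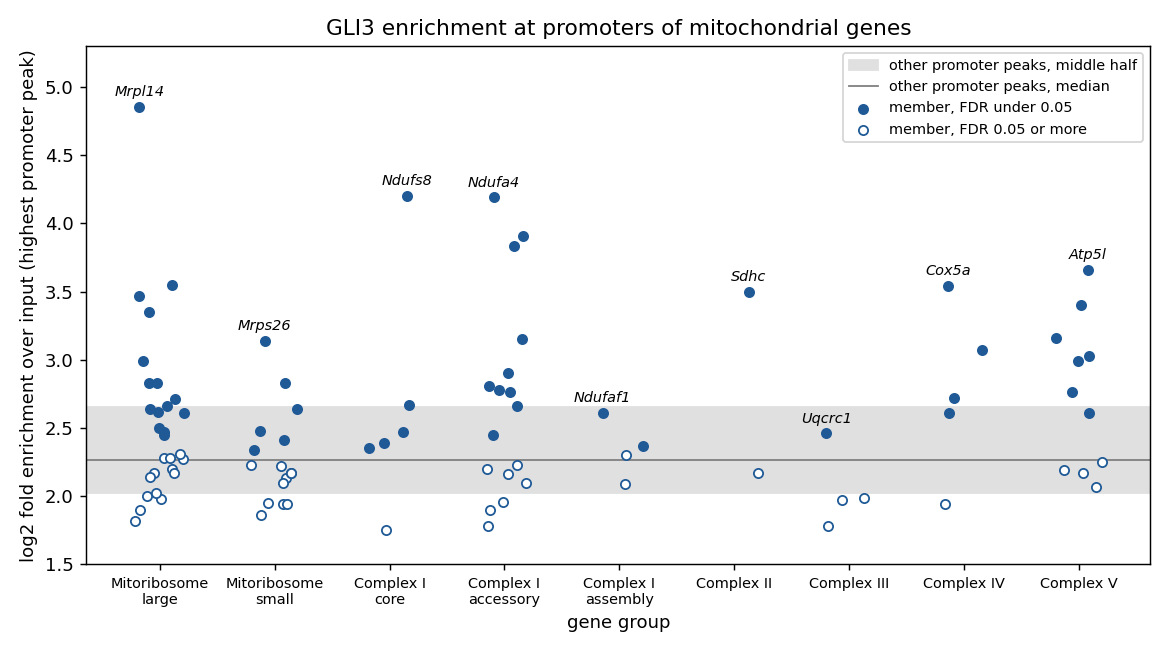
Log2 fold enrichment over input of each member's highest promoter peak, by gene group, for the 93 members with a listed peak. Filled points have an FDR under 0.05, open points 0.05 or more, the grey band and line are the middle part (lower to upper quartile) and median of other promoter peaks, and the highest gene of each group is named, from Mrpl14 at 4.85 to Uqcrc1 at 2.46.

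**Figure D3:**
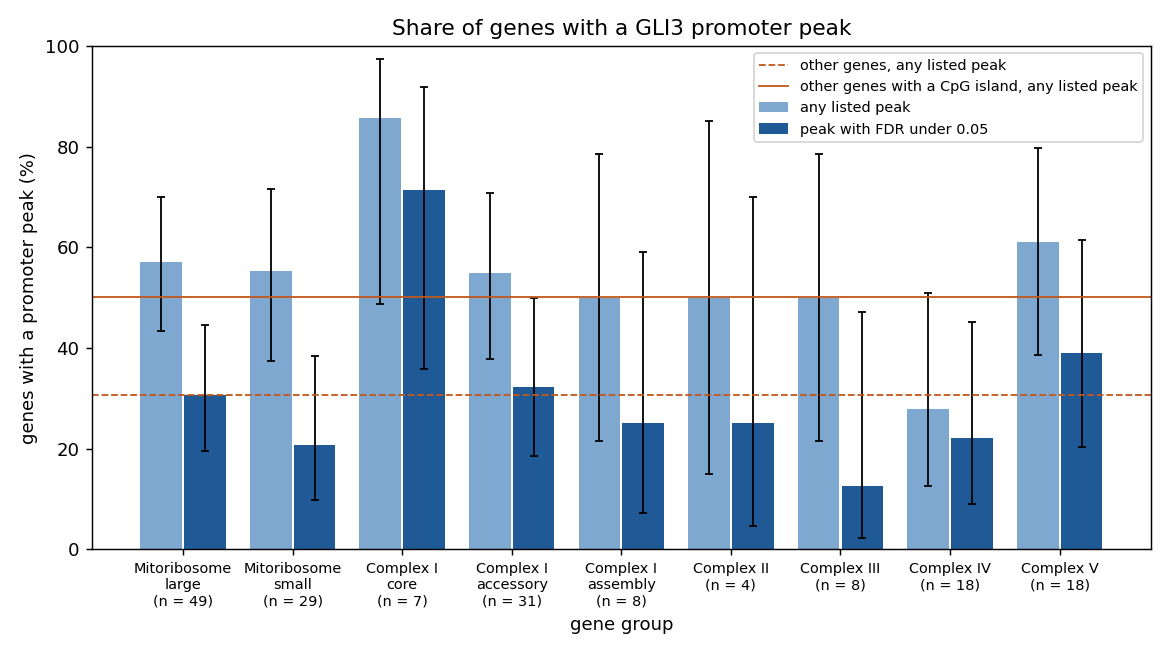
Share of genes (%) in each group with any listed promoter peak (light bars) or one with an FDR under 0.05 (dark bars), with 95% Wilson intervals and the number of genes below. The lines mark other genes (30.6%) and other genes with a CpG island (50.2%), and the intervals of the light bars contain the upper line in all 9 groups.

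Across the 9 groups the share with a listed peak ran from 27.8% to 85.7%, and the bars of share by group show that most of these intervals overlapped widely. Under the FDR threshold the intervals contained the 28.3% of island genes in every group except the complex I core. Every group held genes with and without a peak. Sdhc and Sdhb of complex II, for example, were on different sides, as were Atp5d and Atp5e of complex V.

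The summits lay close to the TSS. The median distance from a member summit to the nearest protein-coding TSS of any gene was 65 bp (interquartile range 28 to 128), and it was 141 bp (56 to 361) at other promoter peaks. Measured to the nearest member TSS, the members' median was 93 bp (41 to 187). By that measure 56 of 103 summits were within 100 bp (54.4%, interval 44.8 to 63.7), and 39.6% of other promoter summits were within 100 bp of a TSS. These comparisons were not matched for promoter class. A divergent partner was present for 39.8% of members with a listed peak and 19.3% of other genes with one. Members and other promoters both had summits on either side, with 58 member summits at or downstream of the TSS and 45 upstream. By annotation 45 summits fell in a 5′ UTR, 28 outside transcripts, 20 in introns, 9 in coding exons and 1 in a 3′ UTR, that of Tssk6 for the upstream Ndufa13 peak.

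**Figure D4:**
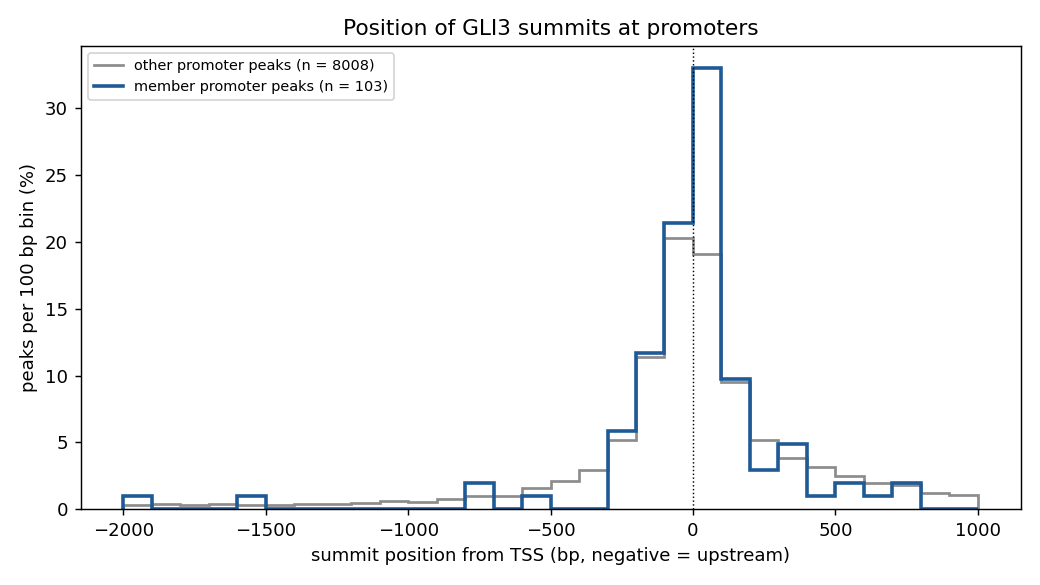
Percentage of promoter peaks per 100 bp bin by position of the summit from the TSS (bp, negative values upstream), for 103 member peaks (nearest member TSS) and 8008 other promoter peaks (nearest protein-coding TSS). Both sets crowd around the TSS, and 54.4% of member summits lie within 100 bp of it.

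The gene to which a peak belongs was not always clear. For 80 of 103 peaks a member TSS was the nearest to the summit, and for 23 another gene's TSS was nearer. The summits of 43 peaks also lay in the window of a gene outside the set. When each peak was given to the nearest TSS alone, 44.8% of members and 27.7% of other genes had one.

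At 10 members 2 or more summits fell in the promoter window. Mrps36 and Atp5j had 3 each, and Ndufa13, Ndufb11, Ndufaf5, Atp5d, Atp5f1, Mrpl13, Mrpl41 and Mrps5 had 2. At Mrps36 the 3 summits lay 30, 355 and 640 bp downstream of the TSS with log2 fold enrichments of 1.99, 2.12 and 2.17, none under the FDR threshold. The second Atp5d peak was the member summit nearest to the window's upstream edge, at 1965 bp and a log2 fold enrichment of 1.93, and lay 127 bp from the TSS of Cbarp. The farthest downstream were those of Mrpl48 (769 bp) and Atp5f1 (737 bp). Just outside the window were Mrps18a (3259 bp upstream), Ndufa4l2 and the peak-less Atp5o record, whose closest summit, 4720 bp upstream, was the one counted for the other record. At the FDR threshold, Ndufaf4 (2.37), Ndufs7 (2.35) and Mrps15 (2.34) were the last members inside at a listed FDR of 0.0374, and Mrpl55 (2.31), Ndufaf5 (2.30) and Mrpl48 (2.28) the first outside at 0.0704. For the 79 members without a promoter peak the closest summit was a median of 42394 bp away, and for 19 of them it was over 100 kb away.

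To ask whether the GLI binding sequence lay under these peaks, the 250 bp on each side of every summit were searched on both strands for the 9-base GLI consensus GACCACCCA with at most 1 mismatch. A match was present at 14 of 103 member peaks (13.6%, interval 8.27 to 21.5) and at 15.3% of other promoter peaks (interval 14.5 to 16.1). Within 100 bp of the summit 4 member peaks held a match (3.88%, interval 1.52 to 9.56), against 7.53% of other promoter peaks. The exact consensus was at 0 of 103 member peaks (upper limit 3.6%) and at 1.16% of other promoter peaks. Among the 1000 highest-ranked peaks 2 of 11 at members had a match, and so did 30.4% of the 493 other promoter peaks, a gap that 11 peaks cannot resolve (interval 5.14 to 47.7%). The 4 windows with a match within 100 bp of the summit are shown from the GRCm38.p6 genome because they are the closest that member peaks come to the consensus. The match is in capitals, read on the strand that carries the consensus orientation.

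Atp5h, chr11:115420246-115420274, plus strand: tcgggccgcgGACCCCCCAgccctcgccc
Ndufs5, chr4:123718016-123718044, plus strand: cccagacctgGGCCACCCAcagagagagg
Mrps9, chr1:42851208-42851236, minus strand: cgcaggcgcaGACCTCCCAggcggaagcg
Ndufs8, chr19:3912690-3912718, plus strand: gccttgccctGGCCACCCAccttgaagtg

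Counted from 1 at the 5′ end of the consensus, the substitutions were A5C at Atp5h, A2G at Ndufs5, A5T at Mrps9 and A2G at Ndufs8. The centres of these matches lay 13, 47, 85 and 97 bp from the summits, in that order. Mrps9 was the weakest of the 4, with a log2 fold enrichment of 2.17 and no call under the FDR threshold. In contrast, no match within 250 bp was found at the strongest member, Mrpl14, or at Ndufa4, Cox5a, Mrpl10 and Sdhc. The 151 bases around the summits of Ndufa4 and Cox5a, which lie upstream of the genes and outside annotated transcripts, are given on the plus strand as examples of strongly enriched member peaks without these letters.

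Ndufa4, chr6:11907527-11907677: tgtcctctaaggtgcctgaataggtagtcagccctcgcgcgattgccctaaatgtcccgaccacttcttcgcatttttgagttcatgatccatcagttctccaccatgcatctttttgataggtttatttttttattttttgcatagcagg
Cox5a, chr9:57521077-57521227: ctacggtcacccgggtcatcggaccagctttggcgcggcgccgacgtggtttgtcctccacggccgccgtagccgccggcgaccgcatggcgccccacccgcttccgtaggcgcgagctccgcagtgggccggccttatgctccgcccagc

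The sequences differ in composition, that of Cox5a being rich in C and G and that of Ndufa4 holding long runs of T.

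Core letters of the known regulators of mitochondrial genes were searched in the same way, as exact matches on both strands: GCATGCGC for NRF1, CCGGAAGT for ETS factors such as GABP and AAGATGGCG for YY1. None of these motifs contains another. NRF1 letters were present at 17 of 103 member peaks (16.5%, interval 10.6 to 24.9) and 7.52% of other promoter peaks, and YY1 letters at 14 (13.6%, interval 8.27 to 21.5) and 4.01%. For ETS letters the values were 10.7% (interval 6.07 to 18.1) and 7.32%, within the counting error. The 3 closest matches to a summit are shown for YY1 and then for NRF1, the letters whose shares at member and other promoter peaks differed by more than the counting error.

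Uqcrc1, YY1, chr9:108936706-108936734, plus strand: cggaagttagAAGATGGCGgcgtccgcag
Mrps27, YY1, chr13:99344790-99344818, plus strand: ggtgcgctccAAGATGGCGgctcccatgg
Ndufa9, YY1, chr6:126849097-126849125, minus strand: attgtgggagAAGATGGCGgccgccgtcc
Mrpl32, NRF1, chr13:14613086-14613113, plus strand: ctcgctcagaGCATGCGCaggcccctct
Ndufaf4, NRF1, chr4:24898074-24898101, minus strand: tacgcacggaGCATGCGCacaccagggg
Atp5g2, NRF1, chr15:102671070-102671097, minus strand: ctccggccgcGCATGCGCagagccttcc

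The same letters were also counted at the starts of genes, with and without a listed promoter peak. In the 250 bp before to 50 bp after the gene's start, NRF1 letters were present at 9.88% of members and 3.69% of all protein-coding genes, ETS letters at 9.3% and 4.69%, YY1 letters at 6.4% and 1.68%, and the GLI consensus with at most 1 mismatch at 7.56% and 6.48%. Among members, YY1 letters were at 6.45% of those with a listed promoter peak and 6.33% of those without. NRF1 letters were at 10.8% and 8.86%, ETS letters at 6.45% and 12.7%, and GLI matches at 6.45% and 8.86%. With at most 10 members behind each percentage of this split, the differences were within the counting error. Among other genes the letters were more frequent with a listed peak than without: NRF1 7.11% and 2.12%, ETS 7.43% and 3.43%, YY1 2.81% and 1.14%. The intervals of members with a listed peak contained the share of other such genes for NRF1 (5.95 to 18.7) and ETS letters (2.99 to 13.4). For YY1 letters the members' interval, 2.99 to 13.4, lay just above it.

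**Figure D5:**
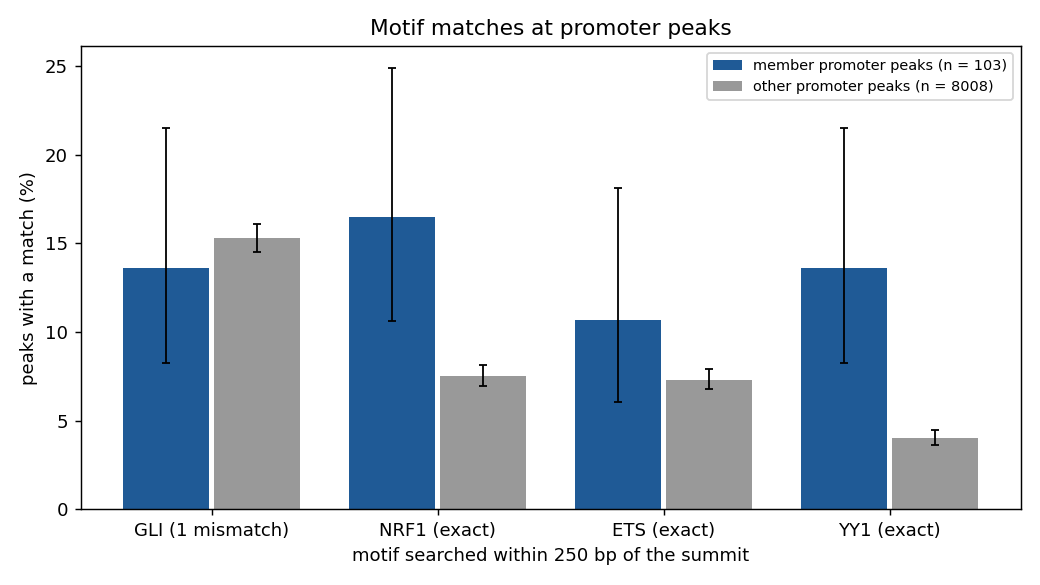
Percentage of promoter peaks with a motif match within 250 bp of the summit, for 103 member peaks (blue) and 8008 other promoter peaks (grey), with 95% Wilson intervals. GLI matches were at 13.6% and 15.3%, and NRF1 and YY1 letters were more frequent at member peaks.

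Other genes of mitochondrial translation and respiration, which the symbol rule does not reach, gave similar shares. Of 60 such genes, 33 had a listed promoter peak (55.0%, interval 42.5 to 66.9) and 21 had one under the FDR threshold (35.0%, interval 24.2 to 47.6). The shares over all genes were 30.7% and 17.0%, and those over island genes, 50.3% and 28.3%, lay inside both intervals. By log2 fold enrichment the highest were Lrpprc (3.34), which stabilises mitochondrial mRNAs, the regulators Yy1 (3.23) and Nrf1 (3.08), the complex II assembly factor Sdhaf2 (3.07), the complex IV assembly factors Cox20 (2.84) and Cox18 (2.81), the translation elongation factor Tsfm (2.84) and the ATP synthase assembly factor Atpaf1 (2.81). Of the 7 nuclear regulators in this list 5 had a listed peak, all under the FDR threshold (71.4%, interval 35.9 to 91.8). This interval contained the 50.3% of island genes with a listed peak. It lay above the 28.3% of island genes with a peak under the threshold. The Gabpa peak is the one already counted for Atp5j, whose TSS is nearer to the summit. Neither of the 2 cytochrome genes, Cyc1 and Cycs, had one.

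Other broadly expressed gene families served for comparison. Cytosolic ribosomal protein genes had a listed promoter peak at 34 of 84 (40.5%, interval 30.6 to 51.2), of which 16 were under the FDR threshold. Proteasome genes had one at 22 of 40 (55.0%, interval 39.8 to 69.3), of which 8 were under the threshold. For listed peaks the proteasome interval lay above the 30.7% of all genes. The interval of the cytosolic ribosomal protein genes contained that value, so their excess over all genes was within the counting error. Both families had intervals that contained the 50.3% of island genes. Under the FDR threshold they were near the 17.0% of all genes and below the 28.3% of island genes, a value that their intervals contained. The mitochondrial ribosome at 56.4% was thus above the cytosolic ribosome at 40.5%, with intervals that overlapped. No listed peak lay on the mitochondrial chromosome itself, but the study's methods do not say whether it was searched for peaks.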

How the data were processed

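ChIP-seq reads of 2 GLI3-FLAG libraries and 1 input were processed by the authors. The submitters' processing notes name Bowtie2 2.2.5 and mm10, and the study's methods name CisGenome and both replicates for peak calling. The deposited list gives an FDR (a q-value), the largest log2 fold enrichment, a T score that sets the rank, and the lowest Poisson p-value as −log10, which stops at 100. These were used as deposited. The list is attached to ChIP replicate 1 and does not state that replicates were combined. The methods give a minimum depth but no read total per library, and the list holds no read counts, so only counting intervals over genes and peaks are available.

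Summits were assigned to TSSs of protein-coding transcripts of GENCODE M21 (basic set) on nuclear chromosomes. The 5 peaks on unplaced sequence were left out. Sequence came from GRCm38.p6. Islands were 500 bp windows centred within 500 bp of a TSS. Assignment and motif search were tested on simulated data. Python 3.11.15, pandas 2.3.3 and pysam 0.24.0 were used. No hypothesis test was run. Alternatives changed the FDR threshold, window, TSS set, gene set and motif.

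Members, groups and gene lists were chosen with earlier results of these data known. Genes named by rule were the 20 members of highest enrichment, all complex II and tissue-restricted genes, the highest of each group, members at the threshold and window edges, those with 2 or more peaks, and 8 other mitochondrial genes. Genes without a peak, motif examples and neighbours were chosen after their values were seen.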

Additional observations from a re-analysis of the deposited data

How the results depend on the processing

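Share of genes with a promoter peak: with an FDR under 0.05 it was 29.7% for members and 16.9% for other genes, and with an FDR under 0.01 it was 22.7% and 12.2%. Giving each peak to the nearest TSS alone gave 44.8% and 27.7%. For other genes the share was 28.2% with 500 bp on each side of a TSS, 28.4% with the 5′ end of the gene record, 50.2% for genes with a CpG island and 27.5% for genes with no divergent partner, and the members' share moved by less than its interval under these. Over these one-at-a-time alternatives the members' share exceeded that of other genes by 8.3 to 23.9 percentage points (1.17 to 1.87 times), the smallest excess being among island genes. Combined settings gave other values: other genes weighted to the members' island and divergent classes had 49.5% against 54.1%, or 28.5% against 29.7% at an FDR under 0.05, island genes at that FDR had 28.3% against 32.1%, and members with an island had 58.3% against 48.1% without a divergent partner but were lower with one, at 58.7% against 61.0%. With an FDR under 0.05 there were 49 member peaks, with a median length of 350 bp, a median log2 fold enrichment of 2.76 (2.69 at other promoters) and, at other promoters, GLI matches at 17.8%. With 500 bp on each side of a TSS other promoter peaks had a median of 2.29 and GLI matches at 14.4%. The exact GLI consensus lowered the share with a match to 0% for members and 1.16% for others, and 100 bp on each side of the summit lowered it to 3.88% and 7.53%. The cause of these shifts was not tested beyond what each setting removes. The other 24 of 45 alternatives stayed within the main intervals. Use of the comprehensive transcript set (54.1% and 30.9%) and of 1 record for each symbol (54.4%) was chosen after seeing the data. No paired analysis was possible because ChIP values per library are not part of the list, and neither replicate could therefore be left out. Read totals per library are not known here and there was 1 input, so a promoter without a listed peak is one where none was detected at this depth.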
